A study of Mus musculus with 4 samples.

Results

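The cells described here are bone marrow barcodes in which Camp, Ngp and Ltf, genes of neutrophil secondary granule proteins, together made up at least 1% of the unique molecular identifiers (UMIs, the tags that count mRNA molecules). Of 22916 barcodes kept for having 1000 genes or more and no more than 10% of UMIs from mitochondrial genes, 83 (0.362%) met the rule. The study sorted CD45.2+Lin-Sca1+Kit+ cells (donor cells of the LSK type, which holds blood stem cells and early progenitors) from mouse bone marrow 10 weeks after transplantation. In each cell mRNA and 6 surface proteins were counted. There were 4 libraries, 1 for each genotype: control, Mll3 deleted, Mll4 deleted, and Mll3 with Mll4 deleted. No agent beyond the transplantation is named in the labels. How and in which cells the genes were deleted, and how many mice stood behind a library, are not given in the sources used here. The deleted libraries are named by label, as Mll3-labelled, Mll4-labelled or Mll3/4-labelled, because the counts below do not check the deletions.

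Neutrophils form in the bone marrow in a fixed order of granule genes. Promyelocytes make primary (azurophil) granule enzymes such as Mpo, Elane and Prtn3, and myelocytes and metamyelocytes later make secondary granule proteins, among them cathelicidin (Camp), lactoferrin (Ltf), neutrophilic granule protein (Ngp) and lipocalin 2 (Lcn2). C/EBP epsilon, the product of Cebpe, is the transcription factor known for switching on the secondary set. Cells at that stage normally carry little Kit, the receptor on which the sort selected.

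The 3 rule genes all lie on chromosome 9 (GRCm38, GENCODE release M21). Camp (ENSMUSG00000038357) spans 109847379 to 109849617 on the minus strand, Ngp (ENSMUSG00000032484) spans 110419747 to 110423012 on the plus strand and Ltf (ENSMUSG00000032496) spans 111019271 to 111042767 on the plus strand. The stretch that holds all 3 is 1195 kb long. The other markers, Lcn2 (ENSMUSG00000026822, 32384633 to 32388252) and Fcnb (ENSMUSG00000026835, 28076378 to 28084885), are both on the minus strand of chromosome 2. The sequences before the starts of 4 of these genes are shown because the genes are high together in the chosen cells. For the 3 rule genes the choice itself made this so. They come from RefSeq (GRCm38.p6), run 5′ to 3′ towards the gene, and stop at whichever of the RefSeq and GENCODE starts lies further upstream. Capitals mark matches to TTNNGCAA or its reverse complement TTGCNNAA, a form of the sequence that C/EBP proteins bind.
Ngp, chr9:110419558-110419746, plus strand: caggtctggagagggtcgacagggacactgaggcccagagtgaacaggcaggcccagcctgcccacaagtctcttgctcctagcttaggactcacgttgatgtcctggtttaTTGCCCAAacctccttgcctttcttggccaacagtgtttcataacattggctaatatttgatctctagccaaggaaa
Ltf, chr9:111019042-111019270, plus strand: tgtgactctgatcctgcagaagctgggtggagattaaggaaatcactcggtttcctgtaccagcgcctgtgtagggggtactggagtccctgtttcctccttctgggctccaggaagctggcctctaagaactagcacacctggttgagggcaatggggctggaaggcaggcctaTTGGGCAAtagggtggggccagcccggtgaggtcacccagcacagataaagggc
Fcnb, chr2:28084886-28085128, minus strand: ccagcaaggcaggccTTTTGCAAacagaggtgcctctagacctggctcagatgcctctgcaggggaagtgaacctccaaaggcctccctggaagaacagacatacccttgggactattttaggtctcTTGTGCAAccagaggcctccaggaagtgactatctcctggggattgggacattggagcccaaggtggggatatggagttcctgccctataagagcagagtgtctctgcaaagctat
Camp, chr9:109849618-109849706, minus strand: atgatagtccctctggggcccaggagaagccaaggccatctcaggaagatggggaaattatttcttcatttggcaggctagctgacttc
In the 250 bases before the RefSeq start, a match was found for 4 of the 5 markers: 2 each for Ngp and Fcnb, 1 each for Ltf and Lcn2, and none for Camp. The Lcn2 window lay wholly inside the GENCODE gene, so its match is not before that start and its letters are not shown. The Ngp match 11 bases before the RefSeq start also lay inside the GENCODE gene and is not in the letters shown. Of the 250 Camp bases, 89 lay before the GENCODE start. Among 16 further secondary granule and S100 genes, 13 had a RefSeq window and 3 of these held a match. Of all 32851 windows of that length, 9.56% held one. The motif was chosen after the letters were seen, and a match is a description of letters only.

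The cells were unevenly spread over the libraries. The control library held 18 of 7274 kept cells (0.247%, 95% Clopper-Pearson interval 0.147 to 0.391), the Mll3-labelled library 10 of 6101 (0.164%, 0.0786 to 0.301) and the Mll4-labelled library 55 of 4793 (1.15%, 0.866 to 1.49). The Mll3/4-labelled library held 0 of 4748, with an exact upper limit of 0.0777% (3 cells of 4748, the floor used for counts of 0, would be 0.0632%), and its highest Camp, Ngp and Ltf share in any kept cell was 0.138%. Intervals and limits here and below cover counting error only. Each genotype is 1 library, so differences have no replicate check and no test was run. At a minimum of 5% the counts were 17, 9, 46 and 0, and at 10% they were 10, 3, 6 and 0. By count the Mll4-labelled library thus held most of the cells at 5% and the control library at 10%. As shares of kept cells the values at 5% were 0.234%, 0.148%, 0.960% and 0%. The control library had more kept cells, so its lead in counts at 10%, 10 of 7274 against 6 of 4793, is not a clear difference in share. The median share was 10.8% of UMIs in the control, 8.38% in the Mll3-labelled and 7.89% in the Mll4-labelled cells.

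**Figure D1:**
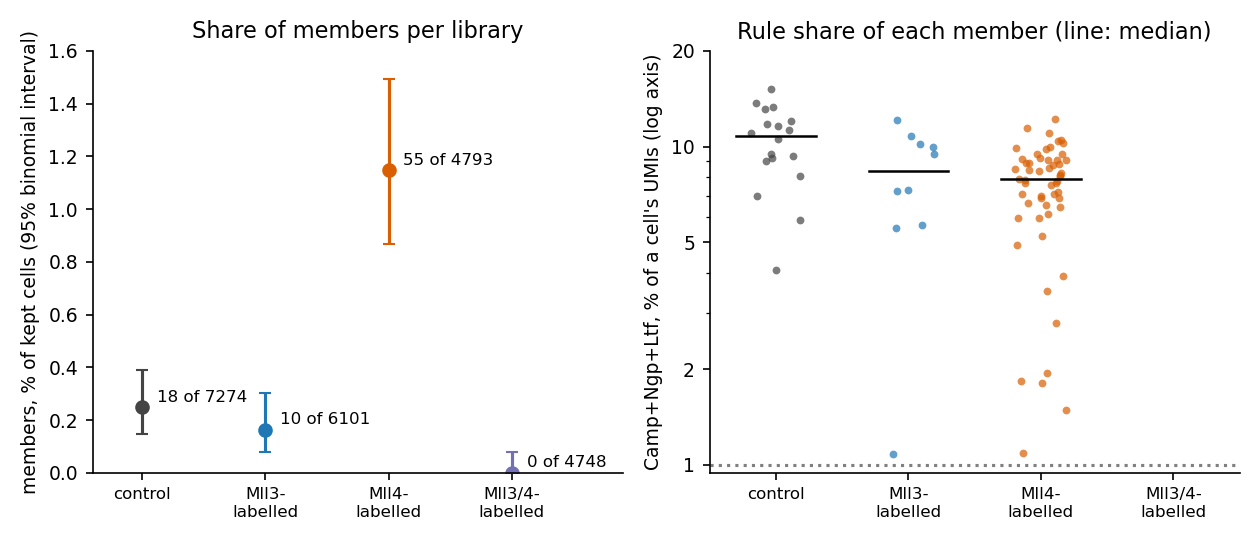
Left, Camp/Ngp/Ltf-high cells as a percentage of kept cells in each library, with exact 95% binomial intervals; right, the share of UMIs from Camp, Ngp and Ltf in each such cell on a log axis, with the median as a line and the 1% minimum dotted. The Mll4-labelled share of 1.15% lies above the control interval of 0.147 to 0.391%, and its cells reach from 1.09% to 12.2% of UMIs.

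Depth and quality were examined before the genes. Kept libraries held 50792614 to 120700343 UMIs. The Camp/Ngp/Ltf-high cells had medians of 15956, 15609 and 30738 UMIs and 3074, 3277 and 4087 genes in the control, Mll3-labelled and Mll4-labelled libraries. Thinned to 6000 UMIs each, which kept all 83, they had medians of 1747, 1895 and 1563 genes. Their mitochondrial share was low, with medians of 1.57%, 2.74% and 1.57% against 4.77%, 4.78% and 3.85% in the other kept cells. The 3 rule genes stood at 4.39, 3.58, 54.4 and 0.866 CPM (a gene's UMIs scaled to a common total) in the other kept cells of the libraries, in the order above, so RNA of these genes outside the rule was also most abundant in the Mll4-labelled library. Of the kept barcodes, 61 were found in a pair of libraries, and none of these was Camp/Ngp/Ltf-high. Scrublet's own threshold called 3, 3, 171 and 1 doublets, few in every library but the Mll4-labelled. Whether that threshold was well placed in any library was not tested. In the Mll4-labelled library it called 2 of the 55 Camp/Ngp/Ltf-high cells. When the highest scores were taken instead, these were 423 of 7274 control, 298 of 6101 Mll3-labelled and 184 of 4793 Mll4-labelled kept cells. Among them were 0, 0 and 3 Camp/Ngp/Ltf-high cells.

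Some Mll4-labelled barcodes near the minimum stood apart. At a Camp, Ngp and Ltf share of 0.671% to 1.09% there were 12 barcodes with high counts of every antibody: 646 to 1259 for CD201 and 358 to 689 for CD135, against library medians of 30 and 19. Elane, Prtn3 and Ctsg made up 1.07% to 1.86% of their UMIs. Of these barcodes, 1 met the rule. Just outside the minimum, the nearest barcodes were at 0.979% in the Mll3-labelled and 0.885% in the Mll4-labelled library, and just inside at 1.08% and 1.09%. A further 3 Mll4-labelled cells, with 74031, 125328 and 152850 UMIs, held 650, 1314 and 317 Elane UMIs beside 608, 1207 and 2208 Camp UMIs. Another held 125 Tpsb2 UMIs, a mast cell tryptase, beside 483 of Camp. Whether these barcodes hold more than 1 cell was not tested beyond the Scrublet scores above, and values that move without them are given with the results.

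The deleted genes were counted next. Kmt2c, which encodes Mll3, had 22 UMIs (75.8 CPM) in the control, 7 (45.7 CPM) in the Mll3-labelled and 101 (50.5 CPM) in the Mll4-labelled cells. Kmt2d, which encodes Mll4, had 8 (27.6 CPM), 2 (13.1 CPM) and 33 (16.5 CPM). These counts come from 3′ ends, and the part deleted is not given in the sources used here, so they do not check the labels.

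The 5 markers were high in all 3 libraries that held such cells. Camp, Ngp and Ltf chose the cells, and every other gene was counted in the same cells, so these levels describe the choice. Camp, the cathelicidin antimicrobial peptide, ranged over control cells from 23834 to 102045 CPM (median 57926). Its range was 10292 to 60379 (48852) over Mll3-labelled and 5557 to 65158 (39795) over Mll4-labelled cells. Ltf, the iron-binding lactoferrin, was found in 18 of 18, 8 of 10 and 54 of 55 cells, at medians of 6372, 2723 and 7259 CPM. Lcn2, which binds bacterial siderophores, had medians of 13962, 14448 and 12181 CPM. Fcnb, a ficolin of immature neutrophils, had medians of 1649, 2167 and 1367 CPM. The ranges of the 3 libraries overlapped for each of these genes. S100a9 and S100a8, subunits of calprotectin, held 119682 and 90479 CPM in the control sum, 67772 and 49445 in the Mll3-labelled and 131768 and 122528 in the Mll4-labelled. Lyz2 (lysozyme) and Chil3, a chitinase-like protein, stood at 14683 and 11393 CPM in the control, 13818 and 13263 in the Mll3-labelled and 11986 and 8252 in the Mll4-labelled cells. The 12 secondary granule genes other than the rule genes summed to 39305, 38913 and 31318 CPM, against 120, 96.7 and 286 CPM in the other kept cells of those libraries. Since the cells were chosen on genes of the same class, this describes them and is no test of the label of neutrophil precursors.

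Several genes of later neutrophils were sparse. Ly6g, the surface marker of maturing neutrophils, had UMIs in 6 of 18, 4 of 10 and 12 of 55 cells. Retnlg, of late neutrophils, stood at 79.2, 19.6 and 69.5 CPM, and Mmp9, the tertiary granule gelatinase, at 27.6, 0 and 44.0. Il1b, a cytokine of mature cells, had no UMI in the control or Mll3-labelled cells and 12 in the Mll4-labelled cells. Summed over its 16 genes, the tertiary granule and mature list made up 1419, 1235 and 1212 CPM. In the other kept cells of those libraries that list stood lower by value, at 162.9, 134.8 and 955.8 CPM. The list as a whole was thus not sparse beside those cells. Within the secondary list 2 genes were sparse too. Mmp8, the neutrophil collagenase, had UMIs in 2 of 18, 0 of 10 and 4 of 55 cells. Olfm4, a secondary granule gene known to be made by a subset of neutrophils, was found in 0, 1 and 2 cells, at up to 3556 CPM in the Mll3-labelled cell.

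Elane, Prtn3 and Mpo of the primary granule list differed widely between cells. Elane, neutrophil elastase, was absent from 7 of 18 control, 1 of 10 Mll3-labelled and 10 of 55 Mll4-labelled cells, had medians of 67.9, 2359 and 83.9 CPM, and reached 6789.5, 22946 and 16163 CPM. Over bins of rising Camp, Ngp and Ltf share (1 to 2%, 2 to 5%, 5 to 10%, and 10% or more, with 6, 5, 53 and 19 cells), the median of Elane was 9632, 1666, 78.9 and 83.9 CPM. Prtn3, proteinase 3, showed 5116, 1851, 197 and 118, and Mpo, myeloperoxidase, 5802, 2645, 83.6 and 42.7. Lcn2 ran the other way, at 2441, 4298, 12498 and 17964 CPM, and so did Lyz2, itself a gene of the primary list, at 3028, 9411, 14352 and 20026. The whole primary list of 12 genes, which Lyz2 leads, had no steady fall, with bin medians of 33903, 15817, 17321 and 21708 CPM. S100a8 was highest in the third bin, at 36240, 53922, 141088 and 107360 CPM. Fcnb was at 138, 844, 1673 and 1504. The lowest bin held 5 Mll4-labelled cells and 1 Mll3-labelled cell, and includes the barcode high for every antibody and cells above 70000 UMIs.

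**Figure D2:**
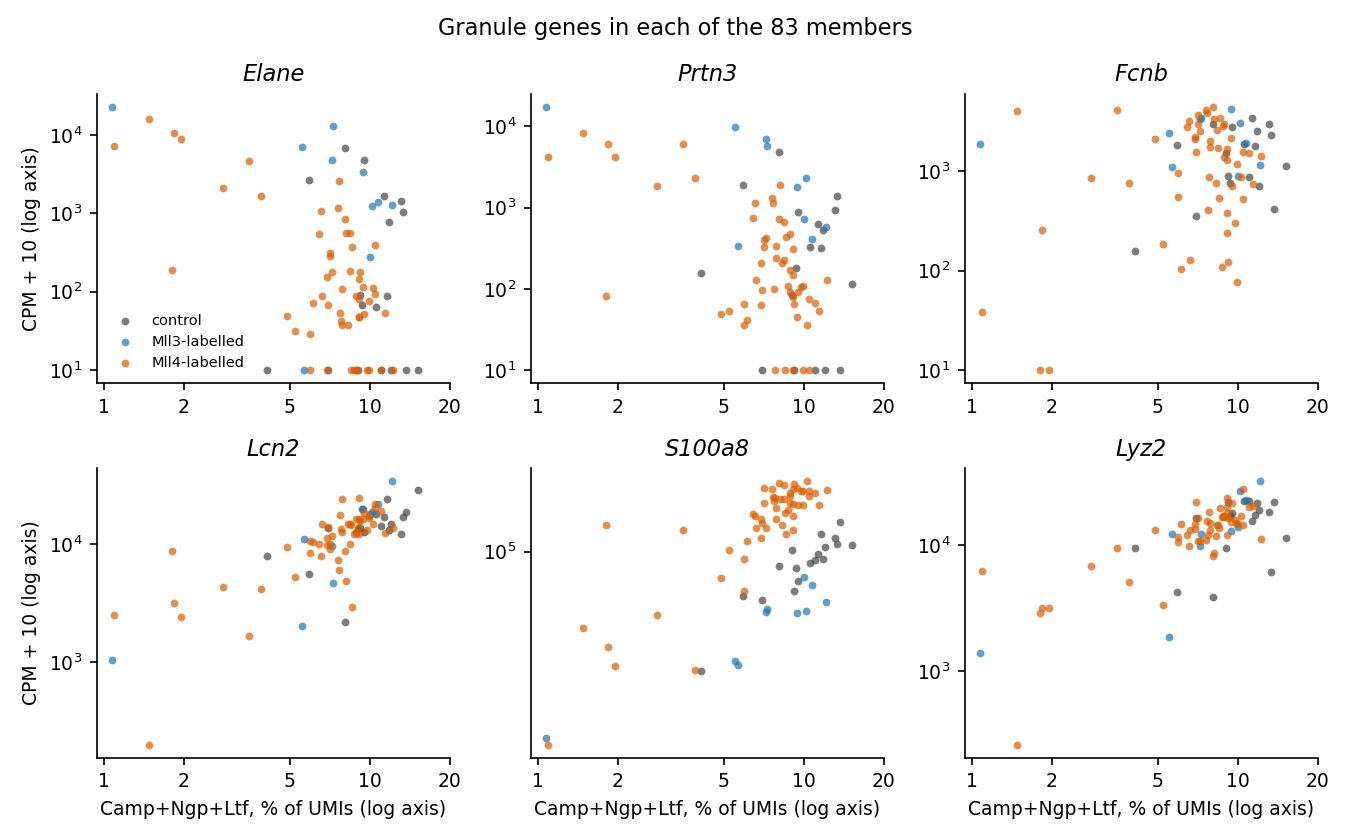
CPM plus 10 of 6 granule genes (log axis) against the share of UMIs from Camp, Ngp and Ltf (log axis) in each of the 83 cells, coloured by library. Elane is above 1000 CPM in 8 of the 11 cells below 5% and at 0 to 179 CPM in the other 3, its bin medians are 9632 CPM at 1 to 2% and 78.9 CPM at 5 to 10%, and Lcn2 and Lyz2 climb with the share.

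Rank correlations were also taken within libraries. After thinning to 6000 UMIs, the Spearman correlation of Lcn2 with Elane across cells was -0.43, -0.69 and -0.69 in the control (18 cells), Mll3-labelled (10) and Mll4-labelled (55) libraries, and that of Ltf with Elane was -0.63, -0.69 and -0.56. The whole primary list showed no such fall with the Camp, Ngp and Ltf share, at 0.27, 0.05 and 0.06. Fcnb went with Elane within each library, at 0.85, 0.55 and 0.30, although its medians over the pooled bins ran against those of Elane. Camp went with Ngp at 0.50, 0.66 and 0.59. Not all markers varied together: Camp with Ltf was at 0.07, 0.70 and 0.17, and Fcnb with Lcn2 at -0.18, -0.09 and -0.18. These values are descriptions: cells of a library share its free RNA and depth, and a large gene lowers the share of every other. Cebpe showed little relation to Elane, at -0.07, -0.18 and -0.04.

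Transcription factors, oxidase and receptors completed the picture of the program. Cebpe had medians of 878, 995 and 381 CPM in the control, Mll3-labelled and Mll4-labelled cells and was found in all 83. Spi1, which encodes PU.1, stood at 406, 425 and 271 CPM in the sums and Cebpd at 293, 385 and 198. Gfi1, a repressor needed for granulocyte commitment, stood at 17.2, 52.3 and 55.5 CPM, and Myb, of proliferating progenitors, at 99.9, 137 and 88.5. The NADPH oxidase genes, which make the respiratory burst, were present as a set: Cybb at 1746, 1405 and 1619 CPM, Cyba at 2366, 2372 and 1126, Ncf1 at 496, 379 and 486 and Ncf4 at 520, 608 and 249.5. Itgam, the CD11b chain of the Mac-1 adhesion receptor, was found in 17 of 18, 9 of 10 and 54 of 55 cells. Csf3r, the G-CSF receptor, stood at 65.4, 78.4 and 49.0 CPM and was found in 11, 6 and 41 cells.

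Proliferation genes were present in most cells. Mki67, a proliferation marker, had UMIs in 16 of 18, 9 of 10 and 51 of 55 cells, at 541, 372 and 466 CPM, against 400, 414 and 375 CPM in the other kept cells of those libraries. Top2a stood at 372, 203 and 540 CPM. The S phase list of 16 genes summed to 1543, 2306 and 1892 CPM and the G2M list of 16 genes to 2339, 1431 and 2191 CPM. No phase was called per cell.

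The cells were also set beside Elane-high cells. That set holds the 840 kept cells outside the rule in which Elane, Prtn3 and Ctsg made up at least 1% of UMIs, with 56, 73, 710 and 1 in the 4 libraries. The ratios were taken in the Mll4-labelled library, which alone held at least 50 Camp/Ngp/Ltf-high cells, and both sets were chosen on granule genes, so the direction of both granule classes was fixed by the choice and nothing is read from the counts. A gene counted as higher or lower when its summed CPM differed at least 2-fold, with 0.5 UMIs added and at least 50 CPM in either sum. Of 3049 genes, 309 (10.1%) were higher and 937 (30.7%) lower. All 10 measured secondary granule genes were higher, with a median log2 ratio of 7.40 against -0.55 over all genes. All 6 oxidase genes were higher too, with a median of 2.72. Of 7 measured tertiary granule and mature genes 4 were higher and 2 lower, with a median of 3.75. Inhba, the activin A subunit, and Orm1, an acute phase orosomucoid, were among the 10 highest, at log2 ratios of 7.84 and 9.06 in the Mll4-labelled, 8.96 and 7.69 in the control and 8.31 and 8.71 in the Mll3-labelled library. Of 12 primary granule genes 9 were lower and 2 higher: Lyz2 (log2 ratio 5.40) and Serpinb1a, an inhibitor of neutrophil proteases (1.38). Besides granule enzymes, the lowest included Plac8 (-2.73), Pdcd4 (-2.76) and the endoplasmic reticulum chaperones Calr (-2.62) and Pdia4 (-2.74). All 4 of these were also lower in the control, at -2.45, -3.19, -4.55 and -2.15, and in the Mll3-labelled library, at -2.26, -3.34, -2.88 and -2.14.

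The sorting markers were weak in the mRNA of these cells. Kit had 11, 8 and 217 UMIs (37.9, 52.3 and 109 CPM) against 215, 216 and 366 CPM in the other kept cells. Ly6a, which encodes Sca1, had UMIs in 2 of 18, 3 of 10 and 12 of 55 cells, with 2, 8 and 22 UMIs in all, and stood at 93.7, 133 and 121 CPM in the other kept cells. Cd34, a stem and progenitor cell marker, had UMIs in 3, 2 and 11 cells. The share due to free RNA was not separated. At the protein level the CD117 (Kit) antibody had median counts of 41, 121 and 118, against 217, 408 and 171 in the other kept cells, with ranges of 18 to 387, 43 to 432 and 42 to 1154. The CD34 antibody had medians of 32.5, 42.5 and 33 against 171, 272 and 97. Depth of antibody counts differed between cells, so a centred log ratio (natural log, over the 6 antibodies) was also taken. On that scale the CD117 median minus that of the other kept cells was -0.742 in the control, -0.690 in the Mll3-labelled and 0.0542 in the Mll4-labelled library. As antibody counts per 1000 of a cell, CD117 medians were 73.0, 120 and 133 against 166, 274 and 70.7. In the Mll4-labelled library it was thus lower as a raw count and higher per 1000.

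Surface gates were compared with those of the other kept cells. With thresholds on CD150, CD48 and CD135 common to the 4 libraries, 7 of 18 control, 4 of 10 Mll3-labelled and 31 of 55 Mll4-labelled cells were in the MPP3 gate (CD150-CD48+CD135-), the myeloid-biased multipotent progenitor phenotype. These are 38.9%, 40% and 56.4%, against 44.3%, 22.2% and 69.9% of the other kept cells. In the MPP4 gate (CD150-CD135+) were 10, 4 and 20, or 55.6%, 40% and 36.4%, against 11.96%, 10.6% and 13.4%. The stem cell gate (CD150+CD48-CD135-) held 0, 1 and 1, against 23.8%, 44.4% and 7.53% of the other kept cells. CD135 antibody counts of these cells were low, with medians of 13, 15.5 and 18 against 19, 26 and 19, and Flt3, its gene, had UMIs in 1, 0 and 5 cells. The MPP4 calls therefore rest on low counts after centring.

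The CD48 antibody split the Mll4-labelled cells. A dividing count of 1000, chosen after the values were seen, left 25 cells at 1168 to 11904 counts and 30 at 137 to 731. All 25 of the CD48-high cells had at least 3 UMIs of the monocyte list without Ly6c2 (11 genes, among them Csf1r, Fcgr4 and Ms4a6c), against 3 of the 30 CD48-low cells. Median levels of that list were 1169 and 40.1 CPM, ranges 94.5 to 4009 and 0 to 256, and median UMIs 35594 and 26958. The 2 sets thus overlapped in this list, with most cells apart. In the control 3 cells were at or above 1000 counts, of which 2 had at least 3 such UMIs, and in the Mll3-labelled library 2 cells, of which 0 did. Across the 83 cells, 21 lay between 500 and 2000 CD48 counts.

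**Figure D3:**
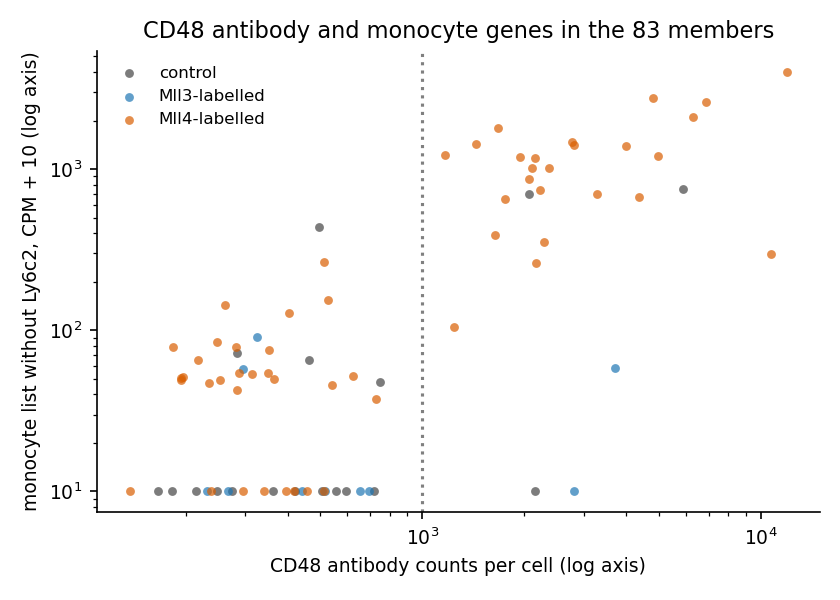
CPM plus 10 of the monocyte and macrophage list without Ly6c2 (log axis) against CD48 antibody counts (log axis) in each of the 83 cells, coloured by library, with the dividing count of 1000 dotted. The 25 Mll4-labelled cells right of the line lie between 94.5 and 4009 CPM, and 27 of the 30 left of it have fewer than 3 UMIs of the list.

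Both kinds of Mll4-labelled cell were chosen on granule genes, so that both held such genes was fixed by the choice. Over all 25 CD48-high and 30 CD48-low cells, the secondary granule list summed to 24829 and 40445 CPM. The primary list summed to 22123.5 and 16482.5 CPM. At a Camp, Ngp and Ltf share of 5% or more, 17 were CD48-high and 29 CD48-low. Of 2399 genes, 361 (15%) were at least 2-fold higher and 21 (0.875%) lower in the CD48-high sum. At that share the CD48-high cells had 35627 CPM of the secondary granule list and 16837 CPM of the primary list. The CD48-low cells had 40743 and 16908 CPM, and 10 measured secondary genes had a median log2 ratio of -0.20. Of 7 measured monocyte genes 6 were higher, Csf1r (the M-CSF receptor) at a log2 ratio of 5.98 and Fcgr4, an Fc receptor of nonclassical monocytes, at 5.68. Others among the highest were Ctss (cathepsin S, 6.20), Adgre4 (6.16), Ear2 (5.33) and the transcription factor gene Pou2f2 (5.71). The transcription factor genes Irf8 and Zeb2 stood at 4.29 and 4.42. In the other kept cells of the Mll4-labelled library Fcgr4 was at 151.5 CPM, against 0.277 in the control, and 961 cells of that library held monocyte genes at 0.2% of UMIs or more. Whether a CD48-high barcode held more than 1 cell was not tested beyond the Scrublet scores above.

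The control and Mll4-labelled sums were then compared, with 18 and 55 cells and 290344 and 1999820 UMIs. The Mll3-labelled library, with 10 cells, is given by value only. Of 2627 genes with at least 50 CPM in either sum, 197 (7.5%) were at least 2-fold higher and 209 (7.96%) at least 2-fold lower in the Mll4-labelled cells, with a median log2 ratio of -0.14. TMM scaling gave 237 and 170, so the share of higher among these calls moved from 48.5% to 58.2%. Because CD48-high and low-share cells were mostly Mll4-labelled, the sums were also compared at a share of 5% or more and fewer than 1000 CD48 counts, with 15 control and 29 Mll4-labelled cells. This restriction was chosen after the values were seen. It left 91 of 2326 genes (3.91%) higher and 404 (17.4%) lower, with a median of -0.45.

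Of 11 measured secondary granule genes other than the rule genes, 2 were higher and 2 lower in the Mll4-labelled cells, against 7.5% and 7.96% of all genes. Their median log2 ratio was -0.47 against -0.14 over all genes, and -0.17 against -0.45 in the restricted cells. Of the 11 genes, 9 had a ratio below 0, but the median over all genes was below 0 as well. The share of all genes below 0 was not counted, so nothing is read from the 9. Wfdc21, a small whey acidic protein, was higher: control cells ranged from 1043 to 4909 CPM (median 2484), Mll3-labelled cells from 568 to 2638 (1309.6) and Mll4-labelled cells from 864 to 10950.2 (6698). Its log2 ratio was 1.16 (95% interval 1.05 to 1.27) and 1.499 in the restricted cells. The other higher gene, Olfm4, rests on 2 cells. The lower genes were Pglyrp1, a peptidoglycan-recognition protein (2934 against 1331 CPM, log2 ratio -1.14, -0.77 in the restricted cells), and Itgb2l, an integrin beta 2-like gene (110 against 32.5 CPM, -1.77).

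The primary granule median depended on which cells were summed. Of 10 measured genes 2 were higher, Mpo (72.3 against 2037 CPM, log2 ratio 4.78) and Ctsg (20.7 against 680 CPM, 4.92), with a list median of 0.41. A single Mll4-labelled cell, of 125328 UMIs, held 43.6% of the Mpo UMIs. In the other kept cells Mpo stood at 174 CPM in the control and 3811 in the Mll4-labelled library. In the restricted cells Mpo was at a log2 ratio of 0.29. Of 9 measured genes 0 were higher and 6 lower, against 3.91% and 17.4% of all genes. The list median was -1.32 against -0.45 over all genes, so it lay on the other side of 0. The list of 6 S100 genes summed to 222821 CPM in the control and 343582 in the Mll4-labelled restricted cells. Its part in these ratios was not tested, and no other scaling was run on the restricted cells. Elane was at -2.41 there, but 3 of the 15 control cells held 245 of its 329 UMIs, and its medians over cells were 80.1 CPM in the control and 70.1 in the Mll4-labelled library. Ms4a3 was at -1.96, with medians of 413 and 102 CPM, and Srgn, the proteoglycan that packs granule enzymes, at -2.34, with medians of 64.4 and 0 CPM. Without cells above 70000 UMIs or high for every antibody the list median was -0.16.

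**Figure D4:**
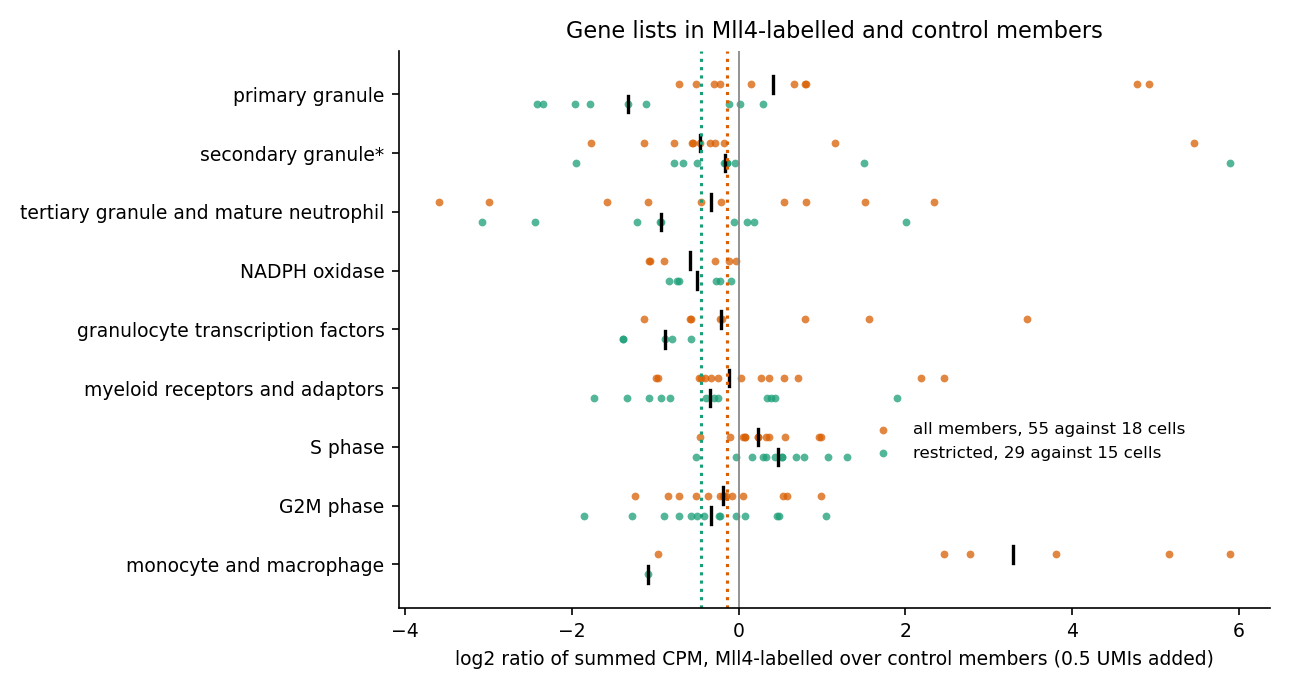
Log2 ratio of summed CPM, Mll4-labelled over control cells, for each measured gene of 9 lists, in all Camp/Ngp/Ltf-high cells and in the restricted cells (share of 5% or more, fewer than 1000 CD48 counts), with list medians as black bars and the medians over all genes dotted. The asterisk marks the secondary list without the rule genes. The primary granule median moves from 0.41 to -1.32 with the restriction, and the S phase median stays above 0 in both.

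In the cell cycle lists few genes were past 2-fold. None of 12 measured S phase genes was past it (median 0.23, and 0.48 in the restricted cells, where 2 were higher), and of 14 G2M genes 1 was lower, the ubiquitin ligase gene Ube2c (-1.24; list median -0.18). The other lists held more. Over all genes 7.5% were higher and 7.96% lower, with a median of -0.14. Of 6 oxidase genes 2 were lower, Cyba (-1.07) and Ncf4 (-1.06), with a median of -0.59. In the restricted cells 0 of the 6 were lower, with a median of -0.50 against -0.45 over all genes. Of 8 measured transcription factors, Gfi1 (1.56) and Zeb2 (3.46) were higher and Cebpe (-1.14) lower. In the restricted cells 5 transcription factors were measured. Cebpb (-1.38) and Myb (-1.39) were lower and none was higher, against 17.4% and 3.91% of all genes. Cebpe was at -0.88 there. Of 10 tertiary granule and mature genes, Ccl6 and the formyl peptide receptor gene Fpr2 (51.7 against 152 CPM, log2 ratio 1.51, and 2.004 restricted) were higher, and Mmp25, G0s2, Msrb1 and Ly6g were lower. Ly6g had 22 UMIs in 6 control cells, with 45.5% of them in 1 cell, and 19 UMIs in 12 Mll4-labelled cells. Csf2rb, the shared beta receptor chain for GM-CSF, IL-3 and IL-5, stood at 17.2 against 86.0 CPM (2.19, and 1.90 restricted), and at 12.6 against 54.8 CPM in the other kept cells. Of 6 measured monocyte genes 5 were higher, with a median of 3.29, but in the restricted cells only Ly6c2 was measured, at -1.08. Ly6c2 may share reads with its near-identical neighbour Ly6c1.

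The 10 highest ratios were led by genes of other lineages. Cpa3, a mast cell carboxypeptidase, and F13a1, of monocytes, had 0 UMIs in the control and 258 and 204 in the Mll4-labelled cells. Against 3 control UMIs they were at least 12.5-fold and 9.87-fold higher. A single cell held 38.0% of the Cpa3 UMIs. Fcgr4, Ms4a6c, Clec4a3 and Zeb2 had 1 to 3 UMIs in the control, and Mif, a cytokine gene, had 8. Nmt1, N-myristoyltransferase, differed in kind: it had UMIs in 54 of 55 Mll4-labelled cells against 3 of 18 control and 3 of 10 Mll3-labelled cells. Its median was 138.5 CPM against 0 and 0, its log2 ratio was 3.57 (2.23 to 6.08), and 3.74 in the restricted cells. Nmt1 (chromosome 11, 103028190 to 103068912) was also higher in the other kept cells of that library, at 169 against 27.7 CPM.

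The 10 lowest ratios held more genes found across cells. Unc119, a trafficking adaptor, ranged in the control from 0 to 465 CPM (median 163) with UMIs in 17 of 18 cells, and in the Mll4-labelled library from 0 to 137 (median 0) with UMIs in 24 of 55. In the Mll3-labelled cells its median was 168 CPM. Its log2 ratio was -3.18 (-3.83 to -2.54), and -1.67 in the other kept cells. The p38 delta kinase gene Mapk13 (-3.21), the tetraspanin gene Cd81 (-2.94), the chitinase-like gene Chil1 (-2.56) and the septin gene Sept1 (-2.48) were lower by value in the other kept cells too, at -0.75, -1.61, -1.09 and -1.74. Tpm3-rs7 (-4.22, and -4.64 in the other kept cells) is close in sequence to Tpm3 and is uncertain. Lrg1, a secreted glycoprotein of neutrophil granules, and Ethe1, a mitochondrial sulfur dioxygenase, were at -2.42 and -2.22 in the Camp/Ngp/Ltf-high cells but at 2.39 and 0.43 in the others. Lrg1 had UMIs in 17 of 18 control, 10 of 10 Mll3-labelled and 25 of 55 Mll4-labelled cells, with medians of 314, 286 and 0 CPM. In the other kept cells it stood at 0.344 and 1.82 CPM in the control and Mll4-labelled libraries. Dntt and Stfa1 rest on 1 control cell each, which held all 46 and all 97 UMIs.

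**Figure D5:**
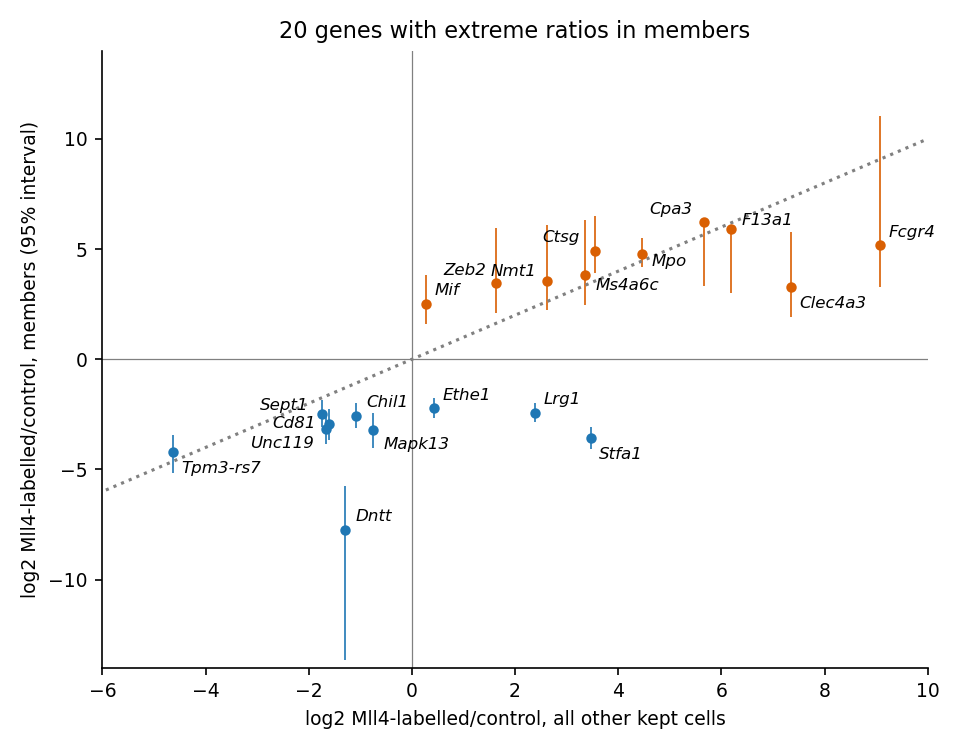
Log2 ratio of Mll4-labelled to control summed CPM for the 10 highest and 10 lowest genes in Camp/Ngp/Ltf-high cells (vertical, with exact 95% intervals from counting, and no upper bar for the genes with 0 control UMIs) against the same ratio in all other kept cells (horizontal), with equality dotted. Tpm3-rs7 and Mpo lie near the line, while Lrg1 and Ethe1 are below 0 on the vertical axis and above it on the horizontal.

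Among the 10 highest ratios in the restricted cells, besides Nmt1 and Fpr2, were Crip1 (log2 ratio 2.35), Hist1h4d (1.95), Slc38a2 (1.92) and Samsn1 (1.81), genes picked out after their values were seen. Slc38a2, an amino acid transporter gene, had UMIs in 54 of 55 Mll4-labelled against 9 of 18 control cells, and Samsn1, an adaptor gene, in 53 against 11. The Mll4-labelled cells were deeper (medians of 30738 against 15956 UMIs), which raises the number of cells with a UMI. Histone genes of the Hist1 cluster are near-identical copies and are uncertain. Counts of Slc38a2 and Samsn1 in the other kept cells were also higher by value in the Mll4-labelled library, at log2 ratios of 0.99 and 0.80.

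Genes of other cell types were counted over their whole lists. B lineage genes (10) had 0, 7 and 18 UMIs in the control, Mll3-labelled and Mll4-labelled cells, erythroid genes (10) had 1, 0 and 78, megakaryocyte genes (6) had 3, 1 and 23, stromal and endothelial genes (6) had 0, 1 and 1, and T, NK and innate lymphoid genes (9) had 12, 10 and 22. Mast cell and basophil genes (8) had 0, 1 and 609 UMIs, at 0, 6.53 and 304.5 CPM, and 0, 1 and 40 cells held any. In the other kept cells that list stood at 23.9, 9.84 and 1690 CPM. Eosinophil genes (8) had 8, 2 and 202 UMIs, at 27.6, 13.1 and 101.0 CPM, against 9.01, 8.54 and 96.8 CPM in the other kept cells. Of the 8 genes, 7, 6 and 6 had no UMI, and the CD48-high cells held 193 of the 202 Mll4-labelled UMIs. Ear2 was higher in the Mll4-labelled cells at a log2 ratio of 1.75. Dendritic genes (9) summed to 458, 941 and 284 CPM, but were at 0 in 14 of 18 control and 7 of 10 Mll3-labelled cells. The highest single cell reached 18918.5 CPM in the control and 6712 CPM in the Mll3-labelled library, so these 2 sums rest largely on few cells. The part of these RNAs in the ratios above was not tested.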

How the data were processed

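Per the labels' protocols, the library chemistry was 10x Genomics Chromium 3′ version 3.1, and per the submitters' processing notes Cell Ranger 6.1.1 and the mm10 build were used. The deposited values are raw UMI counts of 32285 genes and raw counts of 6 antibodies per barcode. The filter that chose the 27080 deposited barcodes is not given in the sources used here. Each library's UMIs were added up over its Camp/Ngp/Ltf-high cells and expressed as CPM, not divided by gene length, so levels compare libraries and not genes. Log2 ratios used 0.5 added UMIs, at least 50 CPM in either sum and at least 50 Camp/Ngp/Ltf-high cells in the deleted library. Intervals are exact at the 95% level (Poisson, Clopper-Pearson, or conditional binomial for ratios) and cover counting error only. No doublets were removed, since the rule for the cells has no such step, and Scrublet (scanpy 1.11.5) was run for an alternative. TMM factors came from edgeR 4.0.16 in R 4.3.3. All other steps used Python 3.11.15. The steps were tested on simulated data.

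The cells and gene lists were chosen with earlier results of these data known. Genes named were those of the lists, the 25 with the highest CPM, the 10 highest and 10 lowest Mll4-labelled to control ratios at 100 CPM or more, and the 10 highest and 10 lowest ratios to Elane-high cells. Mitochondrial, ribosomal protein, haemoglobin, immunoglobulin, T-cell receptor, sex-linked and unnamed genes were left out of the ranked choices. The CD48 division and the genes ranked on it or on the restricted cells were chosen after the values were seen. Antibody levels are centred log ratios per cell, and gates used 1 threshold per antibody from a Gaussian mixture. Alternatives were other minimums for the share, cell filters, scalings, CPM minimums, weights and doublet removal. Coordinates are from GENCODE M21 and promoter sequences from RefSeq, both on GRCm38.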

Additional observations from a re-analysis of the deposited data

How the results depend on the processing

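No paired analysis was possible because each genotype is 1 library and the labels carry no replicate numbers. The share of kept cells moved in 2 of 40 alternative values: to 0.412% in the control with 2000 genes and 5% mitochondrial UMIs as limits, and to 0.605% in the Mll4-labelled library in the restricted cells (share of 5% or more, CD48 below 1000 counts). Genes at least 2-fold higher and lower in Mll4-labelled than control cells numbered 314 and 333 with a total without granule and S100 genes, 514 and 538 at 20 CPM, 51 and 40 at 200 CPM, 101 and 426 with share bins weighted to the control, and 91 and 404 in the restricted cells. With a 5% minimum 326 were lower. The higher share of such genes was 48.5%, against 58.4% with median-of-ratios scaling, 36.1% with equal weight per cell, 37.8% with a 2% minimum, 29.9% with a 5% minimum, 19.2% with weighted bins, 18.4% in the restricted cells and 34.8% without cells above 70000 UMIs or high for every antibody.

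The secondary granule median of -0.47 stayed below 0, at -0.39 with TMM and -0.39 with median-of-ratios scaling, -0.40 at 200 CPM, -0.28 with equal weight, -0.31 and -0.18 with 2% and 5% minimums, -0.34 without the highest Scrublet scores, -0.17 with weighted bins, -0.26 without the deep or antibody-high cells and -0.17 in the restricted cells. It did not keep its side of the median over all genes, which was -0.14 in the main comparison. That median was -0.30 with a 5% minimum, -0.39 with weighted bins and -0.45 in the restricted cells. The secondary granule median lay above it in these settings and below it in the others given here. The primary granule median of 0.41 was 0.67 with the total without granule and S100 genes, 0.73 at 200 CPM, 0.0543 with equal weight, -0.17 and -0.74 with 2% and 5% minimums, -0.11 without the highest Scrublet scores, -0.80 with weighted bins, -0.16 without the deep or antibody-high cells and -1.32 in the restricted cells. The S phase median was -0.25 with weighted bins and the transcription factor median -0.88 in the restricted cells. On the natural log of counts per 1000 antibody counts, the Mll4-labelled median minus that of the other kept cells was 0.629 for CD117 and -0.0713 for CD34, against 0.0542 and -0.524 on the centred log ratio. The cause of these moves was not tested. The depth of 18 control cells, 290344 UMIs in all, limits ratios of genes with few control UMIs.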

Other observations

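Among barcodes that failed the filter on genes or mitochondrial UMIs, 2 of 408 in the control, 1 of 459 in the Mll3-labelled, 9 of 2909 in the Mll4-labelled and 0 of 388 in the Mll3/4-labelled library had at least 1% of UMIs from Camp, Ngp and Ltf. Antibody counts above 300 for both CD201 and CD135 were found in 3, 5, 27 and 0 kept barcodes.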
